A study of Mus musculus with 9 samples.

Results

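Chemokine ligands and chemokine receptors were examined in the kidneys of Bmal1 knockout and wild-type mice. The genes were chosen by their symbol: Ccl, Cxcl, Xcl and Cx3cl names for the ligands, Ccr, Cxcr, Xcr and Cx3cr names for the classical receptors, and Ackr names for the atypical receptors. This gave 62 symbols in 66 of the 23282 rows, namely 39 ligands, 19 classical receptors and 4 atypical receptors. Ccl21a, Ccl21b and Ccl19 each had extra rows that were at 0 in every library. The platelet chemokines Pf4 and Ppbp and the receptor-like Ccrl2 have names outside these stems and were not members.

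The knockout group consisted of 5 kidney libraries from C57BL/6 mice with the genotype Bmal1 -/-, and the wild-type group of 4 kidney libraries from C57BL/6 mice. Bmal1, whose gene symbol is Arntl, pairs with Clock to form the activator at the centre of the circadian clock. Libraries were made with the QuantSeq kit, which reads a tag near the 3′ end of each transcript, so levels can be set side by side without a length correction. The labels give no sampling hour, sex, age or deleted part of Bmal1, and do not say whether it was removed in all cells or whether each library came from its own animal, so the p-values reflect only how far these libraries vary, which may be technical. Levels are log2(x + 1), where x is the number of reads as adjusted by the authors towards a common library size, and a difference is knockout minus wild type on that scale.

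Chemokines are small secreted proteins that guide leukocytes along concentration gradients by binding G protein-coupled receptors on them. Homeostatic chemokines are made steadily by epithelium, stroma and lymphatic vessels, and inflammatory chemokines are induced in injured or infected tissue. Atypical receptors bind chemokines without the usual G protein signal and many of them take the ligand up and degrade it.

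Library makeup varied within and between the genotypes. Adjusted totals were 11765219 to 13486444 over the 9 libraries, and the raw depth is unknown. Arntl itself had levels of 5.65 to 5.99 in knockout and 6.26 to 7.06 in wild type, and a tag outside the deleted part would still be read. The ribosomal RNA precursor Rn45s took 6.83% to 14.4% of adjusted reads in knockout and 5.07% to 11.3% in wild type. Globin transcripts took 0.897% to 3.56% in knockout and 0.619% to 1.54% in wild type. The highest share within each genotype was in knockout 4 and wild type 2. The part of these measures in the results was not tested beyond the alternatives given beside them.

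Of the 62 symbols, 31 reached the filter for testing, an x of at least 10 in at least 4 libraries. They were 21 ligands, 9 classical receptors and the atypical receptor Ackr3. Of the others, 25 were above 0 somewhere and 6 were at 0 in all 9 libraries, namely Ccl1, Ccl20, Ccl26, Ccr1l1, Ccr8 and Cxcr1. All members together summed to an x of 5171 to 6383 in knockout and 5165 to 6675 in wild type, so their sum overlapped between the genotypes.

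The test across all 13481 genes called 5 of the 31 tested members changed (limma, Benjamini-Hochberg adjusted p under 0.05, two-sided). Ccl28 and Cxcl14 fell in knockout kidneys, and Ccl21b, Ackr3 and Ccl4 rose. This is 16.1% of the tested members, against 14.4% of all tested genes. The share of members called higher was 9.68%, against 6.16% of all genes, and the share called lower was 6.45%, against 8.2% of all genes. These shares are near the background, so the number of calls is not a result about the family. Of the 31 members, 3 had groups that did not overlap (9.68%, against 14.3% of all genes): Ccl28 and Cxcl14, lower in every knockout, and Ccl21a, higher in every knockout. Groups without overlap were higher in knockout for 5.86% of all genes and lower for 8.46%. The median difference of the members was 0.18, against 0.0002 for all tested genes, with 20 differences positive and 11 negative. Member lists were chosen by symbol, and a gene such as Ccl4 that reached the filter through knockout libraries alone had to lie higher there.

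**Figure D1:**
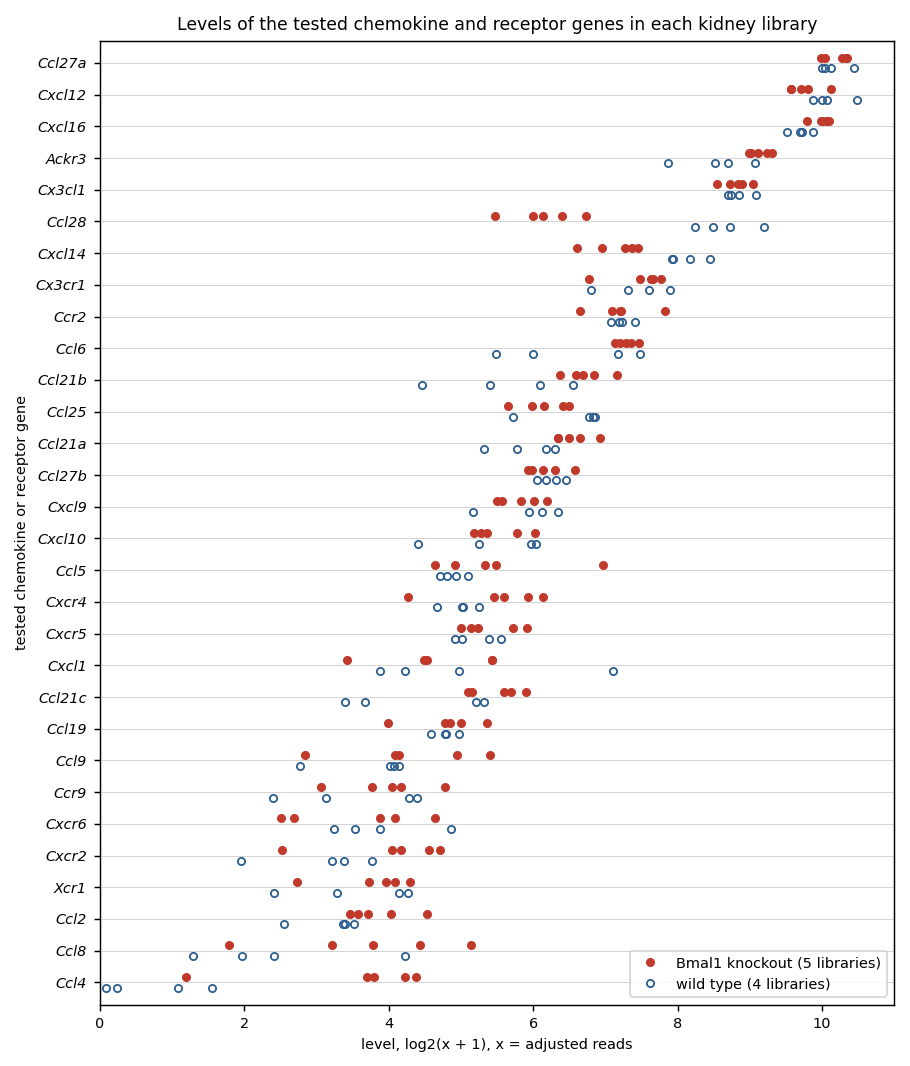
Levels, log2(x + 1), of 30 tested genes in each library, knockout (filled) above wild type (open), each point 1 library. Ccl27a, Cxcl12 and Cxcl16 are at the high end, Ccl4 is at the low end in wild type, and Ccl28 shows the widest gap among the abundant genes.

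The promoters of 3 of the 5 called genes are shown because the results turn on these genes: Ccl28 (chr13:119623569-119623868, + strand), Cxcl14 (chr13:56296502-56296801, - strand) and Ackr3 (chr1:90203730-90204029, + strand). The sequences are RefSeq's for GRCm38.p6, run from 250 bases before the transcript start to 50 bases after it, and are written 5′ to 3′ on the gene's strand. Capitals mark a match to the interferon-stimulated response element.
Ccl28: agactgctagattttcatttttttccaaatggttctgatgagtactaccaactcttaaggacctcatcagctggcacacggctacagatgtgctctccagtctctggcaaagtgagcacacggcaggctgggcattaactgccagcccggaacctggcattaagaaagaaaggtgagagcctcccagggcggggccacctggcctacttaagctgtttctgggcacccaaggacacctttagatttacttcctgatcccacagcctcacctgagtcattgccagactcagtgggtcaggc
Cxcl14: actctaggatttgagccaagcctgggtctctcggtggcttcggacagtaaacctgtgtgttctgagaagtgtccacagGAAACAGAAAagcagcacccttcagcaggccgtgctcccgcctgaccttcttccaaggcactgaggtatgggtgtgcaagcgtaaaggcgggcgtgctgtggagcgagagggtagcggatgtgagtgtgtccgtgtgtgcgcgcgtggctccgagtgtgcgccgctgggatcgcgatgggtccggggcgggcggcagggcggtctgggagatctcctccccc
Ackr3: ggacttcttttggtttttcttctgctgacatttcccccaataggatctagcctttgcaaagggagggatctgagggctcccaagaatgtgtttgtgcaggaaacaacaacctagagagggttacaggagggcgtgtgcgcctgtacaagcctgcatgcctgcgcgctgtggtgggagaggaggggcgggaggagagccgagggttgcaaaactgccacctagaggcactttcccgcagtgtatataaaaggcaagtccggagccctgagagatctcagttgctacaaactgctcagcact
The searches covered both strands for the E-box CACGTG, which Bmal1 and Clock bind, the E-prime box CACGTT, the D-box TTANGTAA, the ROR element, the interferon-stimulated response element and the NF-kB motif. Among all 32851 promoters of this length, 7.15% held the E-box, 4.68% the E-prime box, 2.32% the D-box, 0.219% the ROR element, 3.44% the interferon element and 8.46% the NF-kB motif. The only match in the 3 printed windows was the interferon element of Cxcl14, which starts at base 79. Among the 53 promoter entries of 46 members, the E-box was found in Cxcl3 and Xcr1 and the E-prime box in Ccl21b and Ccr6. No promoter entry of Ccl21b touched the annotated Ccl21b gene, so none was printed and its match is not placed at that gene. Ccl4 had no promoter entry. The D-box was found in Ackr4 and Ccr6, the ROR element in Ccl17 and Ccr6, and the interferon element in Ccl19, Cxcl10 and Cxcl14. The NF-kB motif was found in 12 of the 53 entries: Ackr2, Ccl1, Ccl9, Ccl20, Ccl27a, Ccr1, Ccr3, Ccr6, Cxcl1, Cxcl2, Cxcl3 and Cxcl10. A match describes these letters, and a missing match says only that they are not in this window.

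Ccl28, a chemokine of mucosal and glandular epithelium that draws IgA-producing plasma cells through Ccr10 and eosinophils through Ccr3, had the largest called decrease. The gene (ENSMUSG00000074715.3) lies at 119623819 to 119654359 on the + strand of chromosome 13 and shares no exon with another annotated gene. Its levels were 6.40, 6.14, 5.47, 6.73 and 5.99 in knockout, against 8.73, 8.49, 8.24 and 9.20 in wild type. Every knockout library lay below every wild-type library. The mean level was 6.15 ± 0.47 in knockout (SD, n = 5) and 8.66 ± 0.41 in wild type (SD, n = 4), a difference of -2.52 (SE 0.24, 95% interval -3.01 to -2.02, limma adjusted p = 6.18e-07). In adjusted reads this was a mean of 72.8 in knockout and 417.7 in wild type, 5.74 times as many in wild type. Ccl28 took 0.725% to 1.65% of all member reads in knockout and 5.38% to 9.97% in wild type. It was the 78th gene of 13481 by p-value. The call held under all 24 alternatives, with differences of -2.72 to -2.34.

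Cxcl14, a homeostatic chemokine made by epithelia and fibroblasts whose receptor is not settled, also fell. The gene (ENSMUSG00000021508.11) lies at 56288643 to 56296551 on the - strand of chromosome 13 and shares no exon with another gene. Ccl28 and Cxcl14 were the 2 members annotated on that chromosome. Cxcl14 levels were 6.61, 7.46, 7.26, 7.38 and 6.95 in knockout, against 7.93, 8.44, 7.92 and 8.17 in wild type, again without overlap. The mean was 7.13 ± 0.35 in knockout (SD, n = 5) and 8.12 ± 0.25 in wild type (SD, n = 4), a difference of -0.98 (SE 0.18, 95% interval -1.38 to -0.59, limma adjusted p = 0.0014). The call held under all 24 alternatives, with differences of -1.27 to -0.85.

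**Figure D2:**
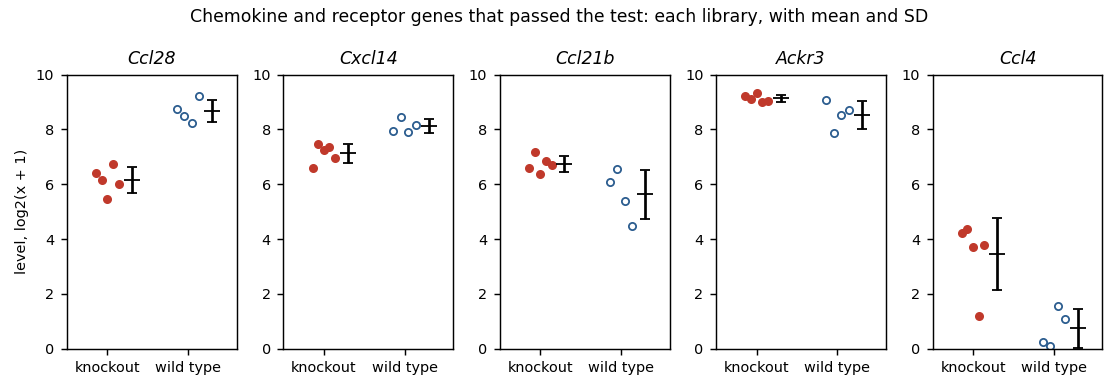
Levels, log2(x + 1), of the 5 called genes in each library, knockout left of wild type, with the mean and SD beside the points. Ccl28 and Cxcl14 do not overlap between genotypes, while single libraries overlap for Ccl21b, Ackr3 and Ccl4.

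Ccl21a, Ccl21b and Ccl21c guide naive T cells and mature dendritic cells through Ccr7 and are made by lymphatic endothelium and lymph node stroma. The copies are nearly identical, so reads could be split between them in ways that cannot be checked, and each copy's value is uncertain. Ccl21b (ENSMUSG00000095675.1, chromosome 4, 42255767 to 42256432, + strand) had levels of 6.598, 7.165, 6.365, 6.838 and 6.691 in knockout, against 6.094, 6.549, 5.396 and 4.464 in wild type. Wild type 2 lay above the lowest knockout, and the other wild types lay below all 5 knockouts. The difference was 1.11 (SE 0.33, limma adjusted p = 0.0290). Without wild type 4 it was 0.72 (adjusted p = 0.0976), without knockout 2 it was 1.00 (adjusted p = 0.0819), without knockout 4 it was 1.08 (adjusted p = 0.0614) and without wild type 3 it was 1.03 (adjusted p = 0.0725). The call was also lost with Rn45s share as a covariate (0.92, adjusted p = 0.1497), with globin share as a covariate (0.90, adjusted p = 0.1449), without a mean trend in the variance (adjusted p = 0.0949) and with quantile normalization (1.01, adjusted p = 0.0514). Ccl21a did not pass, although its groups did not overlap: its levels were 6.34, 6.34, 6.65, 6.49 and 6.92 in knockout, against 6.30, 6.18, 5.78 and 5.31 in wild type (difference 0.66, SE 0.23, limma adjusted p = 0.0690). It passed without wild type 1 (0.79, adjusted p = 0.0489) or wild type 2 (0.76, adjusted p = 0.0445). Ccl21c had levels of 5.10 to 5.90 in knockout and 3.40 to 5.32 in wild type (difference 1.09, SE 0.40, limma adjusted p = 0.0789), and passed without wild type 1 (1.36, adjusted p = 0.0460) or wild type 2 (1.40, adjusted p = 0.0220).
The sum of the 3 copies, chosen as an alternative after seeing the data, does not depend on how reads were split among them. It may still depend on whether shared reads were dropped, counted more than once or placed elsewhere, which is not given. Its log2 levels were 7.81, 8.14, 7.75, 7.99 and 8.01 in knockout, against 7.51, 7.67, 6.75 and 6.14 in wild type, so all 5 knockout libraries lay above all 4 wild-type ones. The difference was 0.92 (SE 0.24, limma adjusted p = 0.0152). Ccl19, the other Ccr7 ligand, had levels of 3.99 to 5.36 in knockout and 4.59 to 4.98 in wild type (difference 0.01, SE 0.33). Of 6 lymphatic endothelial markers 0 passed by limma (2 at an unadjusted p under 0.05, median difference 0.11), with summed reads of 264 to 358 in knockout and 184 to 319 in wild type.

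Ackr3, an atypical receptor that binds Cxcl12 and Cxcl11 and removes them from the surroundings, rose. Cxcl11, annotated as a polymorphic pseudogene in the mouse, was below the filter. The Ackr3 gene (ENSMUSG00000044337.5) lies at 90203980 to 90216751 on the + strand of chromosome 1. Its levels were 9.23, 9.11, 9.31, 8.99 and 9.02 in knockout, against 9.07, 7.86, 8.52 and 8.69 in wild type. Wild type 1 lay within the knockout range. The difference was 0.60 (SE 0.18, 95% interval 0.22 to 0.97, limma adjusted p = 0.0318), or a mean x of 562.0 in knockout and 386.7 in wild type. Without wild type 2, the lowest library, it was 0.37 (adjusted p = 0.0754), and without wild type 3 it was 0.59 (adjusted p = 0.0636). The call was also lost without knockout 1 (0.57, adjusted p = 0.0570), knockout 2 (0.60, adjusted p = 0.0615) or knockout 3 (0.55, adjusted p = 0.0789). It was lost too without a mean trend in the variance (adjusted p = 0.1135) and without both wild type 2 and knockout 4 (0.41, adjusted p = 0.0757).

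Ccl4, an inflammatory chemokine of macrophages, NK cells and T cells, was called higher. The gene (ENSMUSG00000018930.3) lies at 83662584 to 83664683 on the + strand of chromosome 11. Its x was 17.6, 19.8, 12.1, 1.28 and 12.9 in knockout, against 0.181, 0.0636, 1.93 and 1.11 in wild type. It passed the filter on 4 knockout libraries and no wild-type library, and knockout 4 lay within the wild-type range. The fitted difference was 2.72 (SE 0.83, limma adjusted p = 0.0342). It depended on the pseudocount, at 1.48 with 5 and 3.21 with 0.5, and is no measure of the fold change. Without each other library the call was lost for knockout 1 (2.53, adjusted p = 0.0899), knockout 2 (2.49, adjusted p = 0.1079), knockout 3 (2.66, adjusted p = 0.0807), knockout 5 (2.63, adjusted p = 0.0780), wild type 1 (2.55, adjusted p = 0.0748) and wild type 4 (2.83, adjusted p = 0.0523). Ccl3, encoded close by on chromosome 11, which acts through Ccr1, had x of 3.71, 2.81, 3.01, 2.23 and 3.47 in knockout, against 0.062, 0.022, 1.96 and 0.019 in wild type. Ccl3 was below the filter.

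The most abundant members were Ccl27a, Cxcl12 and Cxcl16, then Ackr3 and Cx3cl1, and of these only Ackr3 passed. Ccl27a, a skin and epithelial chemokine that binds Ccr10, had levels of 9.981, 10.347, 10.326, 10.277 and 10.043 in knockout, against 10.129, 10.438, 9.998 and 10.037 in wild type (difference 0.04, SE 0.12). Its exons overlap those of Il11ra1 on the other strand, and the strand handling is not given, so its reads may be from either gene. Cxcl12, which holds haematopoietic and immune cells in tissue through Cxcr4, had levels of 9.575, 9.710, 9.803, 10.123 and 9.563 in knockout, against 9.867, 10.487, 10.065 and 10.002 in wild type. Its difference was -0.35 (SE 0.14, limma adjusted p = 0.1031). It passed with Rn45s share as a covariate (-0.59, adjusted p = 0.0018), with globin share as a covariate (-0.53, adjusted p = 0.0172) and without knockout 4 (-0.44, adjusted p = 0.0418).
Cxcl16, a membrane-bound ligand of Cxcr6 that is shed to attract T cells, had levels of 10.004, 10.053, 9.988, 10.098 and 9.795 in knockout, against 9.718, 9.870, 9.516 and 9.700 in wild type. Knockout 5 lay below wild type 2 and the other knockouts lay above all wild types. The difference was 0.29 (SE 0.11, limma adjusted p = 0.0830). It passed under 4 other scalings, at 0.34 to 0.39 (adjusted p = 0.0156 to 0.0368), and without wild type 2 (0.34, adjusted p = 0.0405). Its exons overlap those of Zmynd15 on the other strand. Cx3cl1, or fractalkine, which tethers monocytes and NK cells through Cx3cr1, had levels of 8.89, 8.54, 8.83, 9.04 and 8.72 in knockout, against 8.69, 9.08, 8.73 and 8.85 in wild type. Its difference was -0.03 (95% interval -0.30 to 0.24). These 4 ligands and Ackr3 took 70.2% to 74.2% of member reads in knockout and 64.1% to 69.9% in wild type.

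**Figure D3:**
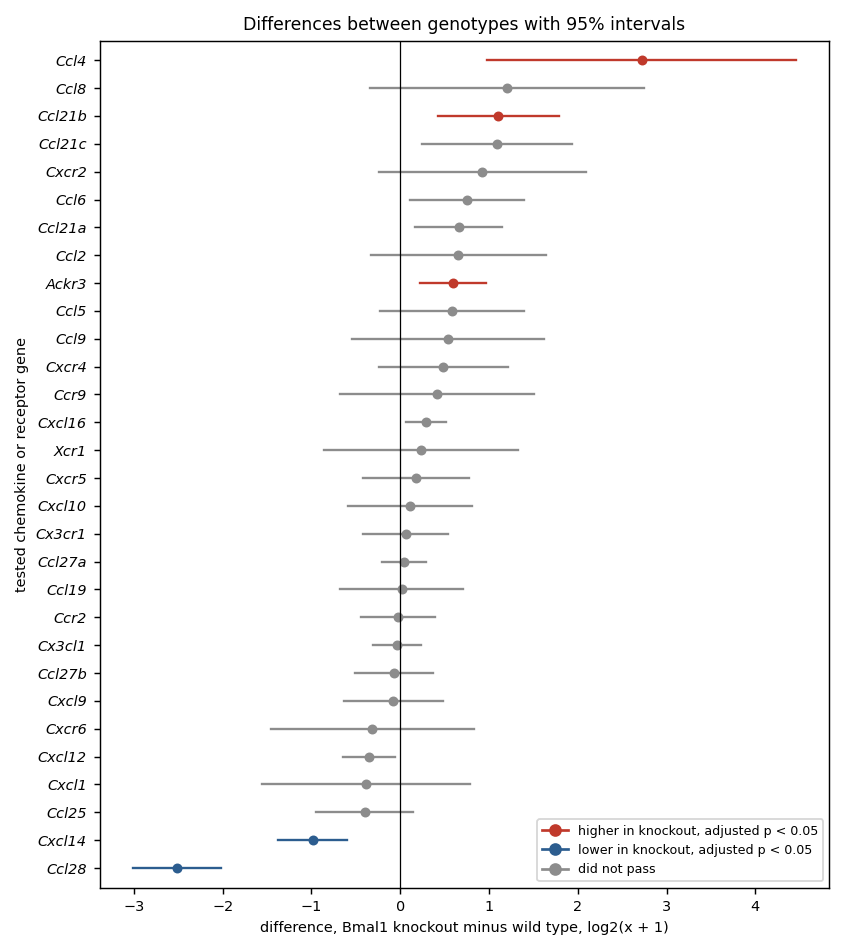
Difference, knockout minus wild type in log2(x + 1), with its 95% interval for 30 tested genes, the coloured genes being those that passed. The genes that did not pass had differences of -0.40 to 1.20, with intervals reaching 0.224 to 1.54 to each side.

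Ligands known as inflammatory or induced did not pass, apart from Ccl4. Ccl6, a macrophage chemokine of rodents, had levels of 7.200, 7.279, 7.137, 7.466 and 7.359 in knockout, against 5.999, 7.482, 5.492 and 7.172 in wild type. Wild type 2 was above all knockouts, and the difference of 0.75 (SE 0.30, limma adjusted p = 0.1135) became 1.07 (adjusted p = 0.0132) without it. Ccl2, which draws monocytes through Ccr2, averaged 3.86 ± 0.43 in knockout (SD, n = 5) and 3.21 ± 0.44 in wild type (SD, n = 4). Ccl5, a T cell chemokine, averaged 5.47 ± 0.90 in knockout and 4.89 ± 0.17 in wild type, with the highest value, 6.97, in knockout 4. Ccl8 and Ccl9, both attractants of monocytes, had differences of 1.20 (SE 0.73) and 0.53 (SE 0.51). The neutrophil attractant Cxcl1 had levels of 3.43 to 5.44 in knockout and 3.87 to 7.11 in wild type, the highest in wild type 2. The interferon-induced ligands of Cxcr3 did not pass: Cxcl9 averaged 5.82 ± 0.29 in knockout and 5.90 ± 0.51 in wild type, and Cxcl10 averaged 5.53 ± 0.36 in knockout and 5.42 ± 0.76 in wild type. Ccl25, the gut and thymus attractant of Ccr9, had a difference of -0.40 (SE 0.26, limma adjusted p = 0.3428). Without wild type 2 it was -0.68 and passed (adjusted p = 0.0472). Ccl27b had a difference of -0.06 (SE 0.21).

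No classical receptor passed: the 9 tested had differences of -0.32 to 0.92, with a smallest limma adjusted p of 0.3037, and 0 had an unadjusted p under 0.05. Cx3cr1, the fractalkine receptor of resident macrophages, had levels of 6.77, 7.47, 7.64, 7.77 and 7.65 in knockout, against 6.80, 7.89, 7.31 and 7.60 in wild type. Ccr2, the receptor of inflammatory monocytes, had levels of 6.648, 7.217, 7.095, 7.818 and 7.200 in knockout, against 7.081, 7.404, 7.228 and 7.182 in wild type. Their differences were 0.06 (95% interval -0.41 to 0.54) and -0.03 (95% interval -0.45 to 0.39). Cxcr4, the receptor of Cxcl12, averaged 5.48 ± 0.73 in knockout and 4.99 ± 0.24 in wild type. Cxcr2, the neutrophil receptor of Cxcl1, averaged 4.00 ± 0.87 in knockout and 3.08 ± 0.78 in wild type, a difference of 0.92 (SE 0.55) whose 95% interval, -0.24 to 2.09, holds 0. Ccr9, Cxcr5, Cxcr6 and Xcr1 had differences of -0.32 to 0.41. Exons of Cxcr5, Ccr9 and Cx3cr1, and of the ligands Cxcl10 and Ccl25, overlap those of other genes, so their reads are uncertain. Summed over the classical receptors, x was 382 to 670 in knockout and 417 to 589 in wild type.

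Ligand and receptor levels were unequal for several pairs. Cxcl12 averaged an x of 872.0 in knockout and 1115.0 in wild type, and Cxcr4 47.5 in knockout and 31.1 in wild type. Ccl27a averaged 1177.0 in knockout and 1144.0 in wild type. Ccr10, the shared receptor of Ccl27a and Ccl28, averaged 4.67 in knockout and 2.17 in wild type and was not tested. Cxcl16 averaged 1017.0 in knockout and 834.5 in wild type, and Cxcr6 12.8 in knockout and 15.2 in wild type. Ccr7, the receptor of the Ccl21 and Ccl19 ligands, averaged 9.38 in knockout and 5.48 in wild type and was below the filter. In whole kidney RNA, fewer cells of a type and less RNA per cell cannot be told apart.

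Just inside the filter were Ccl4 and Ccl8, with 4 libraries at an x of 10, and Cxcr2 with 5; just outside were Xcl1 with 3, and Ackr4, Ccl12, Ccr6, Ccr7 and Cxcr3 with 2. Of the 25 untested genes above 0, 9 reached an x of 10 in some library and 16 did not. When the filter was dropped, Ccl3 (difference 1.58, SE 0.46, limma adjusted p = 0.0414), Cxcl15 (1.74, SE 0.52, adjusted p = 0.0468) and Ackr4 (1.90, SE 0.57, adjusted p = 0.0493) passed, all higher in knockout. Cxcl15 rests on few reads, with x of 0, 2.82, 4.01, 4.32 and 3.51 in knockout and at most 0.0526 in wild type. Ackr4 scavenges Ccl19, Ccl21 and Ccl25, and its x was 11.1, 13.2, 9.04, 4.51 and 4.13 in knockout, against 5.79, 0.0512, 0.955 and 1.099 in wild type. Its exons overlap those of Acad11 on the other strand.

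**Figure D4:**
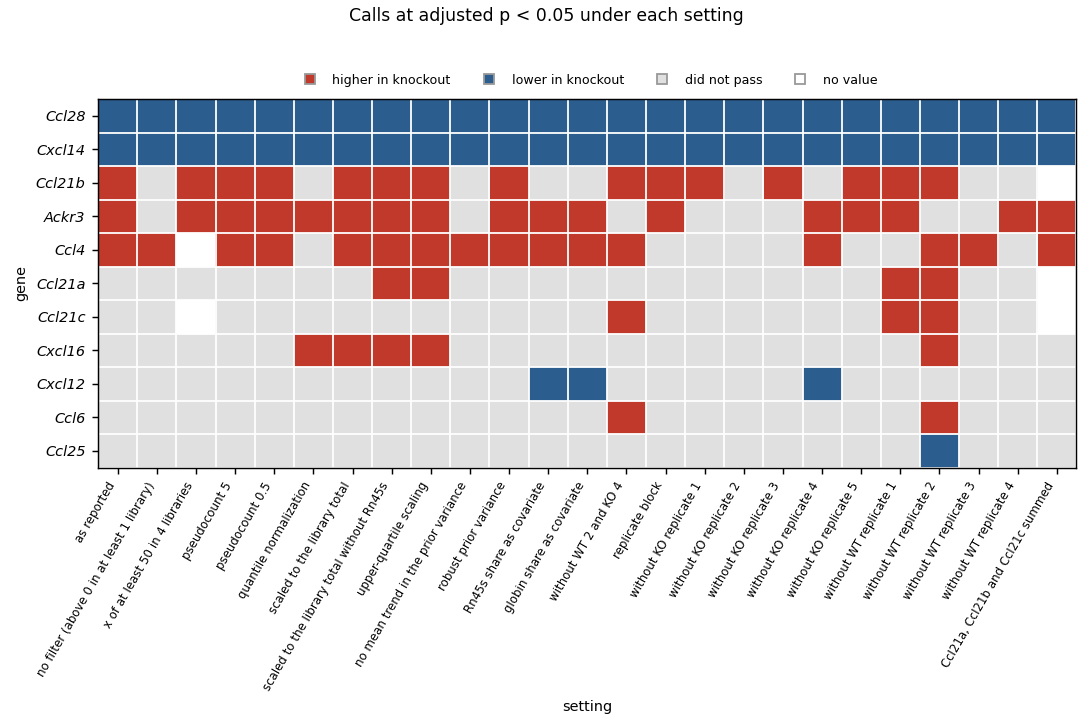
Calls at an adjusted p of 0.05 for each gene that passed under at least 1 setting, 1 column per setting and 1 row per gene. Ccl28 and Cxcl14 are lower in knockout in every column, and the other genes pass in only some columns.

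The other genes of the pathway are given as counts beside all tested genes, of which 6.16% were called higher, 8.2% lower and 14.4% either way. No list was tested as a set. Counts are of tested genes, while sums of x cover all genes of a list in the data, also those below the filter. Of 23 genes in a list of chemokine processing and binding, 3 rose (13%) and 4 fell (17.4%), with a median difference of 0.09. The list also held genes outside that description: the platelet chemokines Pf4 and Ppbp, and Cmtm3, Cmtm4 and Cmtm6. Pf4 was among those that rose and Cmtm6 among those that fell. The heparan sulphate proteoglycan Sdc2, which can hold chemokines at cell surfaces, fell by 0.83 (SE 0.11, limma adjusted p = 4.59e-05). Anpep, a peptidase that trims chemokines, fell by 0.69 (SE 0.14, adjusted p = 0.0028), Cmtm6 fell by 0.59 and the heparan sulphate enzyme Hs6st1 fell by 0.41. Mmp14, a membrane protease, rose by 0.73 (SE 0.20, adjusted p = 0.0186), Sdc4 rose by 0.35, and Pf4 rose by 0.92. Of 30 genes of chemokine receptor signalling, 1 rose (3.33%) and 0 fell: Grk5, a receptor kinase, differed by 0.70 (SE 0.20, limma adjusted p = 0.0255). Cdc42 and Gnai2, the most abundant of these, differed by 0.06 and 0.23. Of 16 leukocyte adhesion genes 2 rose (12.5%), the endothelial Pecam1 (0.83) and the integrin Itga4 (1.16, SE 0.32), and 0 fell.

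Cytokine, NF-kB, interferon-response and tubule injury genes were counted because inflammatory chemokines are induced in such settings. Of 27 cytokine and NF-kB genes 4 passed, 14.8% against 14.4% of all tested genes, so this count is near the background. Of these 3 rose and 1 fell: the inhibitor Nfkbia rose by 0.86 (SE 0.16, limma adjusted p = 0.0013), Il6ra rose by 1.44 and Tlr4 rose by 0.96, while the kinase Chuk fell by 0.52. Il1a, Il6, Lta and Tnf were near 0. Of 21 interferon-response genes 0 passed by limma, and 3 had an unadjusted p under 0.05. Of 13 tubule injury genes tested 7 rose (53.8%) and 0 fell. Those that rose included the ferroxidase Cp (1.96, SE 0.16, limma adjusted p = 1.55e-07) and the fibrinogen chain Fgg (3.13, SE 0.21, adjusted p = 1.23e-08). The 17 injury genes in the data had sums of 10879 to 14597 in knockout and 5685 to 7471 in wild type, without overlap. The tested injury genes that did not pass had differences of -1.01 (Sox9) to 0.68 (C3). Sox9 was lower in every knockout (SE 0.34, limma adjusted p = 0.0513). Havcr1, the injury marker Kim-1, was below the filter, with a mean x of 5.38 in knockout and 14.1 in wild type. The part of these genes in the chemokine differences was not tested.

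Among immune cell markers few genes passed. Of 8 general leukocyte markers 1 rose and 0 fell. The share called higher was 12.5%, against 6.16% of all tested genes, and rests on 1 gene. By limma 3 had an unadjusted p under 0.05, and the median difference was 0.42. The 8 markers had sums of 1016 to 1467 in knockout and 786 to 1280 in wild type. Of 14 macrophage and monocyte markers, Csf1r fell by 0.48 (limma adjusted p = 0.0044) and Ly6c2 rose by 0.73 (adjusted p = 0.0197). These are 7.14% each, near the background of 6.16% higher and 8.2% lower. The 15 macrophage and monocyte markers in the data had sums of 1649 to 2235 in knockout and 1837 to 2313 in wild type. Of 3 T cell markers tested 0 passed. The 10 T cell markers in the data had sums of 69 to 94 in knockout and 42 to 85 in wild type. Of 2 neutrophil markers tested 0 passed. The 10 neutrophil markers in the data had sums of 85 to 563 in knockout and 53 to 395 in wild type. Camp, Elane, Mpo and Ngp were near 0. Of 9 dendritic cell markers tested 1 rose (11.1%), Batf3 (1.80, SE 0.58, limma adjusted p = 0.0444), and 0 fell. The 11 in the data had sums of 2071 to 3653 in knockout and 1994 to 2943 in wild type. Only 1 NK cell and 1 mast cell marker were tested, and 0 passed. The 8 NK cell markers had sums of 31 to 62 in knockout and 15 to 41 in wild type. Of 3 B and plasma cell markers tested 1 fell (33.3%), Jchain, the joining chain of polymeric IgA and IgM, and Pax5 was near 0. Jchain levels were 7.81, 5.96, 7.32, 8.29 and 6.12 in knockout, against 9.14, 9.32, 8.12 and 9.62 in wild type. The list's sum was 91 to 372 in knockout and 306 to 838 in wild type, and Jchain made up 49% to 83.6% of it in knockout and 89.1% to 94.1% in wild type. Without Jchain it was 22.7 to 92.4 in knockout and 27.3 to 78.6 in wild type, with overlap. The plasma cell marker Mzb1 averaged an x of 25.1 in knockout and 23.6 in wild type and did not pass (0.15, limma adjusted p = 0.8598). The B cell marker Ms4a1, below the filter, averaged 17.7 in knockout and 1.65 in wild type. The part of B and plasma cells in the decrease of Ccl28 was not tested.
Among structural cells, shares called are set against all tested genes, of which 6.16% were higher, 8.2% lower and 14.4% either way. Tested blood endothelial markers numbered 11, of which 4 rose (36.4%) and 0 fell. The 12 in the data had sums of 5647 to 9587 in knockout and 4347 to 6106 in wild type. Of 12 fibroblast and mural markers 3 rose (25%) and 0 fell. Their sums were 4505 to 6991 in knockout and 3843 to 4090 in wild type. Of 12 proximal tubule markers 4 fell (33.3%) and 0 rose, with a sum of 437170 to 468030 in knockout and 605838 to 809434 in wild type. Most of that sum was Kap, an abundant androgen-regulated transcript, which did not pass (difference -0.67, SE 0.23, limma adjusted p = 0.0604). Of 8 collecting duct markers 3 rose (37.5%) and 0 fell. Their sums were 5334 to 7468 in knockout and 4129 to 4682 in wild type. Slc4a1, 1 of these 3 (difference 0.96, limma adjusted p = 0.0029), is also an erythroid marker, and was the only 1 of 7 erythroid markers that passed (14.3%). The erythroid differences were 0.72 to 0.96, and 6 of the 7 had an unadjusted limma p under 0.05. Erythroid sums were 103180 to 436466 in knockout and 73937 to 196921 in wild type. Of 7 urothelial markers tested 6 rose (85.7%) and 0 fell. The 10 in the data had sums of 976 to 1812 in knockout and 503 to 606 in wild type. Of 7 podocyte markers 1 rose (14.3%, a share that rests on 1 gene) and 0 fell. By limma 5 had an unadjusted p under 0.05, and the median difference was 0.34. The 7 markers had sums of 3532 to 4315 in knockout and 2711 to 3494 in wild type, without overlap. The part of these markers in the differences of Ackr3, Cxcl14, Ccl28 and Ccl21 was not tested.

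**Figure D5:**
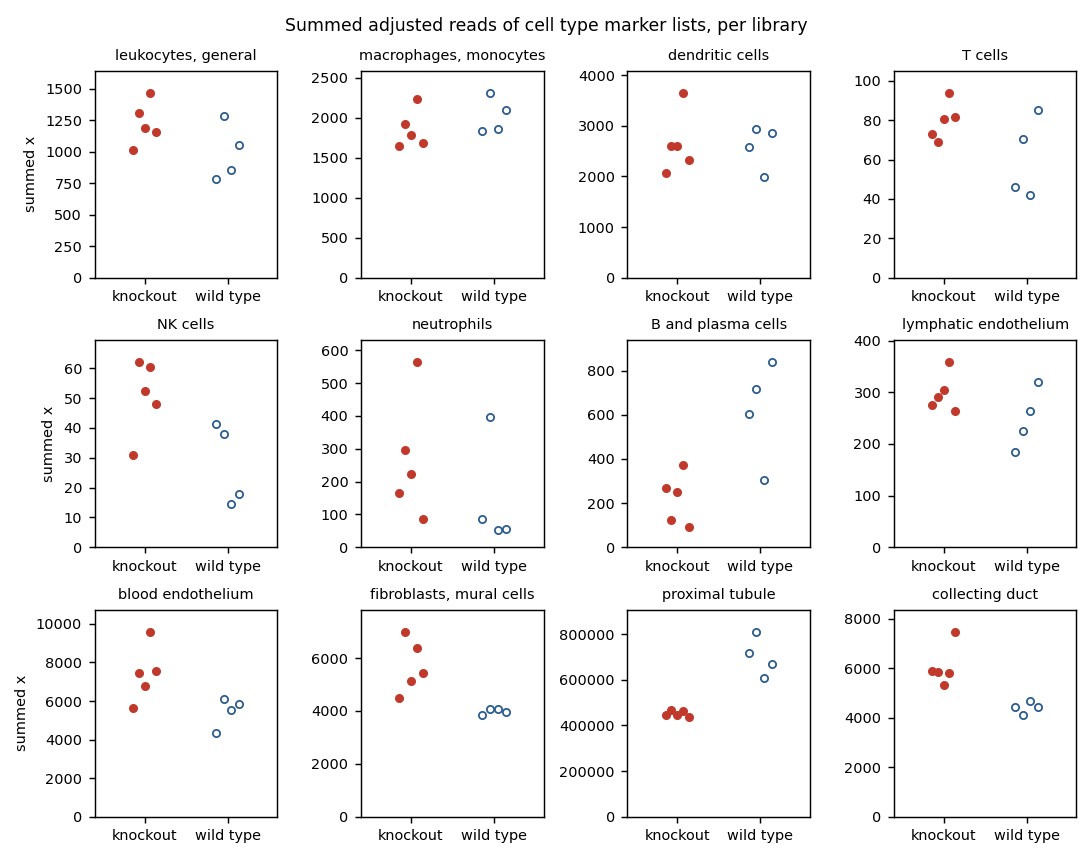
Summed adjusted reads of 12 cell type marker lists in each library, knockout left of wild type, each panel with its own axis starting at 0. Proximal tubule sums are lower in every knockout, and fibroblast and collecting duct sums are higher in every knockout, while macrophage and T cell sums overlap between genotypes.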

How the data were processed

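Kidney RNA of 5 Bmal1 knockout and 4 wild-type libraries was sequenced by QuantSeq 3′ mRNA sequencing. The deposited values, 1 table per library, are log2(x + 1), x being reads which, judging by the values, the authors brought near a common library size. Bowtie2, bedtools and mm10 appear in the submitters' processing notes. Not given in the sources used here are the normalization tool, the annotation, the strand setting and the handling of shared reads. Low x values lay in bands near whole multiples of the value of 1 read (69.6% to 100% of low values per library, within 0.15 of a multiple), but not exactly, so reads were not recovered and no count test was run. The raw depth, and so any counting interval, is unknown.

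Genes with an x of at least 10 in at least 4 libraries entered a limma fit (version 3.58.1, R version 4.3.3, variance trend with the mean, genotype as the term), with Benjamini-Hochberg adjustment over 13481 genes, a threshold of 0.05 and 95% intervals. The fit was tested on simulated data. Differences of log2(x + 1) understate changes of low genes.

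Members, gene lists and pairs were chosen with earlier results of these data known. Values in every library are given for members that passed, members whose groups did not overlap and the 10 with the highest mean level. Of each list described, up to 4 passing genes and the 2 most abundant could be named; genes named beside these were chosen after their values were seen. Positions came from GENCODE M21, which holds 61 of the 62 symbols and uses GRCm38 (the assembly behind mm10), and promoters from RefSeq. The 24 alternatives changed the filter, pseudocount, scaling, variance model, covariates, libraries or replicate block, or summed the Ccl21 copies. Of the tested members, 1 is counted but not reported here by itself.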

Additional observations from a re-analysis of the deposited data

Results flagged for a closer look

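In 4 of the 62 sets formed by 1 tested gene in 1 genotype, a library stood apart from the others of its genotype by Dixon's test at the 95% level, and chance flags about 1 in 20 such sets. Ccl4, the macrophage and NK cell chemokine, had a level of 1.19 in knockout 4, against 3.71 to 4.38 in the other knockouts. Ccl2, the monocyte attractant, had 2.55 in wild type 3, against 3.37 to 3.52 in the other wild types. Ccl9, another monocyte attractant, had 2.77 in wild type 3, against 4.01 to 4.15 in the other wild types. Ccl25, the ligand of Ccr9, had 5.72 in wild type 2, against 6.78 to 6.85 in the other wild types.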

How the results depend on the processing

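Ccl28 and Cxcl14 passed under all 24 alternatives, whereas Ccl21b passed under 14 of 23, Ackr3 under 16 of 24 and Ccl4 under 15 of 23; the cause of the lost calls was not tested. The number of changed members was 3 without a mean trend and 2 to 9 without 1 library; members higher in knockout numbered 5 with scaling to the total without Rn45s, 5 with upper-quartile scaling, 1 without a mean trend and 0 to 6 without 1 library. Genes changed over the whole table were 1222 with Rn45s share and 1194 with globin share as a covariate. Those higher in knockout were 1272 with scaling to the total without Rn45s, 548 with the Rn45s covariate and 506 with the globin covariate. Those lower were 695 with scaling to the total without Rn45s, 734 without a mean trend, 674 with the Rn45s covariate and 688 with the globin covariate. The share of calls that were higher was 42.9%, and became 56.8% with scaling to the total, 64.7% with scaling to the total without Rn45s, which moved the median of all genes to 0.10, and 58.1% with upper-quartile scaling. Of the members not called, 6 passed somewhere, and 22 of the 31 had the same call under every alternative that tested them, 11 of them with the same direction too. With the replicate block 1738 genes and 4 members passed, and Ccl4 did not (2.63, limma adjusted p = 0.0863). Deviations of same-numbered libraries from their genotype means correlated at 0.151, 0.001, -0.007 and 0.041. Only knockout 1 correlated best with its own number. The labels do not say whether the same number means a shared batch, and so few correlations cannot decide it.

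Among the 726 results by gene and alternative 41 turned direction, in 11 genes that did not pass in the reported test. With quantile normalization Ccl19 was -0.15, Cxcl10 -0.029 and Cx3cl1 0.035. With scaling to the total Cx3cl1 was 0.026 and Ccr2 0.030. With scaling to the total without Rn45s Cx3cl1 was 0.073, Ccr2 0.076, Ccl27b 0.038 and Cxcl9 0.025. With upper-quartile scaling Cx3cl1 was 0.043, Ccr2 0.047 and Ccl27b 0.009. With the Rn45s covariate Ccl19 was -0.19, Ccl27a -0.11, Cx3cr1 -0.30 and Cxcr6 0.14. With the globin covariate Ccl19 was -0.005, Ccl27a -0.024, Cx3cr1 -0.16 and Cxcr6 0.14. Without wild type 2 and knockout 4 Cxcl10 was -0.17, Cxcl1 0.35 and Xcr1 -0.13. Leaving out 1 library gave -0.18 to 0.11 for Ccr2, -0.092 to 0.048 for Cx3cl1, -0.13 to 0.22 for Ccl19, -0.32 to 0.072 for Cxcl9, -0.23 to 0.32 for Cxcl10, -0.14 to 0.23 for Cx3cr1, -0.16 to 0.002 for Ccl27b, -0.77 to 0.31 for Cxcl1, -0.14 to 0.49 for Xcr1, -0.007 to 0.14 for Ccl27a and -0.59 to 0.01 for Cxcr6. Without the filter Ccl21b (adjusted p = 0.0601) and Ackr3 (adjusted p = 0.0524) did not pass. Low read numbers limit the genes with a mean x under 20, whose median SD within a genotype was 0.82, against 0.24 for those with a mean x of at least 100.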

Other observations

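Chemokine-family genes whose names lie outside the symbol rule were chosen after their values were seen. Pf4, the platelet chemokine Cxcl4, had levels of 6.30, 6.56, 5.94, 6.99 and 6.56 in knockout, against 5.57, 5.96, 5.14 and 5.53 in wild type, with wild type 2 above the lowest knockout. The platelet chemokine Ppbp averaged 6.07 ± 0.80 in knockout (SD, n = 5) and 5.20 ± 0.25 in wild type (SD, n = 4), and did not pass (0.87, SE 0.34, limma adjusted p = 0.1002). Ccrl2, a non-signalling receptor that holds chemerin at cell surfaces, had levels of 5.49 to 6.00 in knockout and 4.54 to 5.27 in wild type without overlap, and did not pass (0.70, SE 0.27, limma adjusted p = 0.0972).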
